A study of Homo sapiens with 12 samples.

Results

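The genes described here encode nuclear subunits of the mitochondrial respiratory chain, measured in IMR-90 cells, a human lung fibroblast line that divides a limited number of times in culture. They were taken from a list of 39 genes, and a gene's value was the mean of the Affymetrix probe sets that name that gene and no other, by its current or a former symbol. Of the 39 genes, 37 were measured, by 77 probe sets, among 19775 genes on the arrays, and SDHB and UQCRFS1 were not analysed here. The 37 genes comprise 17 of complex I, 3 of complex II, 5 of complex III, cytochrome c (CYCS), 7 of complex IV, and the 4 genes of the pairs COX4I1 with COX4I2 and NDUFA4 with NDUFA4L2, which are described apart. The probe sets of 18 of these genes number 1 each, and 19 genes have several.

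The respiratory chain carries electrons from NADH, through complex I, and from succinate, through complex II, by way of ubiquinone, complex III and cytochrome c to complex IV, where oxygen is reduced to water. Complexes I, III and IV pump protons across the inner mitochondrial membrane, and ATP synthase uses the gradient. A few subunits have isoforms that human cells use differently when oxygen is scarce: hypoxia-inducible factor 1 is known to raise COX4I2 in place of COX4I1, with the protease LONP1 degrading COX4I1, and to raise NDUFA4L2, a paralogue of NDUFA4 reported to lower complex I activity. NDUFA4 was first assigned to complex I and is now counted as a subunit of complex IV (current symbols COXFA4 and, for NDUFA4L2, COXFA4L2).

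There were 3 arrays, labelled as biological replicates, in each of 4 groups: old but nonsenescent cells kept at 3% oxygen and harvested at population doubling 53, young cells kept at 3% and harvested at doubling 30, senescent cells kept at 20% and harvested at doubling 48, and young cells kept at 20% and harvested at doubling 30. The labels name no drug and no genetic change in any group, all were grown as monolayers in serum-containing medium, and each oxygen level had its own incubator, so that oxygen and incubator cannot be told apart. The late groups were not stopped at the same doubling. The comparisons were senescent with young cells at 20% oxygen, old with young cells at 3% oxygen, young cells at 3% with those at 20%, old cells at 3% with senescent cells at 20%, and the interaction, which is the senescent minus young difference at 20% less the old minus young difference at 3%.

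The deposited values are log2 signals that had been set against each probe set's own median on the 12 arrays, so differences between groups can be read and levels cannot. All values below are on this log2 scale, a value after ± is the standard error of a log2 change with n = 3 arrays per group unless SD is named, and the number of arrays limits the precision. A gene was called at a limma adjusted p under 0.05 over all 19775 genes, and p-values measure only the spread between the labelled replicates. In RNA from whole cultures, fewer cells of a kind and less RNA per cell cannot be told apart.

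The array of young cells at 3% oxygen, replicate 2, stood apart for these genes. Its mean over the 37 genes was -0.19, against -0.10 to 0.11 on the other 11 arrays, and it was the lowest of the 12 arrays for 15 of the 37 genes. Its ACTB control probes for the 3' end, less those for the 5' end, each relative to their own median over the arrays, stood at 0.71, against -0.22 to 0.35 on the other arrays. The part of this difference in the results was not tested beyond the values given without that array and those with this ACTB value as a covariate. Of 10 fibroblast markers measured, 6 (among them DCN, LUM and COL3A1) fell in senescent against young cells at 20% oxygen and 6 fell in young cells at 3% against 20%. This is 60% of the markers in each comparison, against 7.84% and 6.84% of all genes called lower. The mean of these markers was -0.09 to 0.00 on the old 3% arrays, -0.14 to -0.12 on the young 3% arrays, -0.16 to -0.11 on the senescent arrays and 0.40 to 0.48 on the young 20% arrays, and the part of this shift in the results below was not tested.

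Most of the 37 genes moved little between the groups, by about as much as genes in general. The median gene had an SD of 0.17 over the 12 arrays, against 0.20 for the median of all genes, and a range of its 4 group means of 0.27, against 0.29. The range of group means reached 0.5 in 9 of the 37 genes (24.3%), against 21.8% of all genes. It reached 1 in 1 of the 37 genes (2.7%), which was NDUFA4L2, and in 5.18% of all genes. The largest group mean lay in senescent cells for 15 genes and the smallest in young cells at 3% for 18. Without the array of young cells at 3%, replicate 2, these counts were 14 and 10, so the second rests largely on that array.

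**Figure D1:**
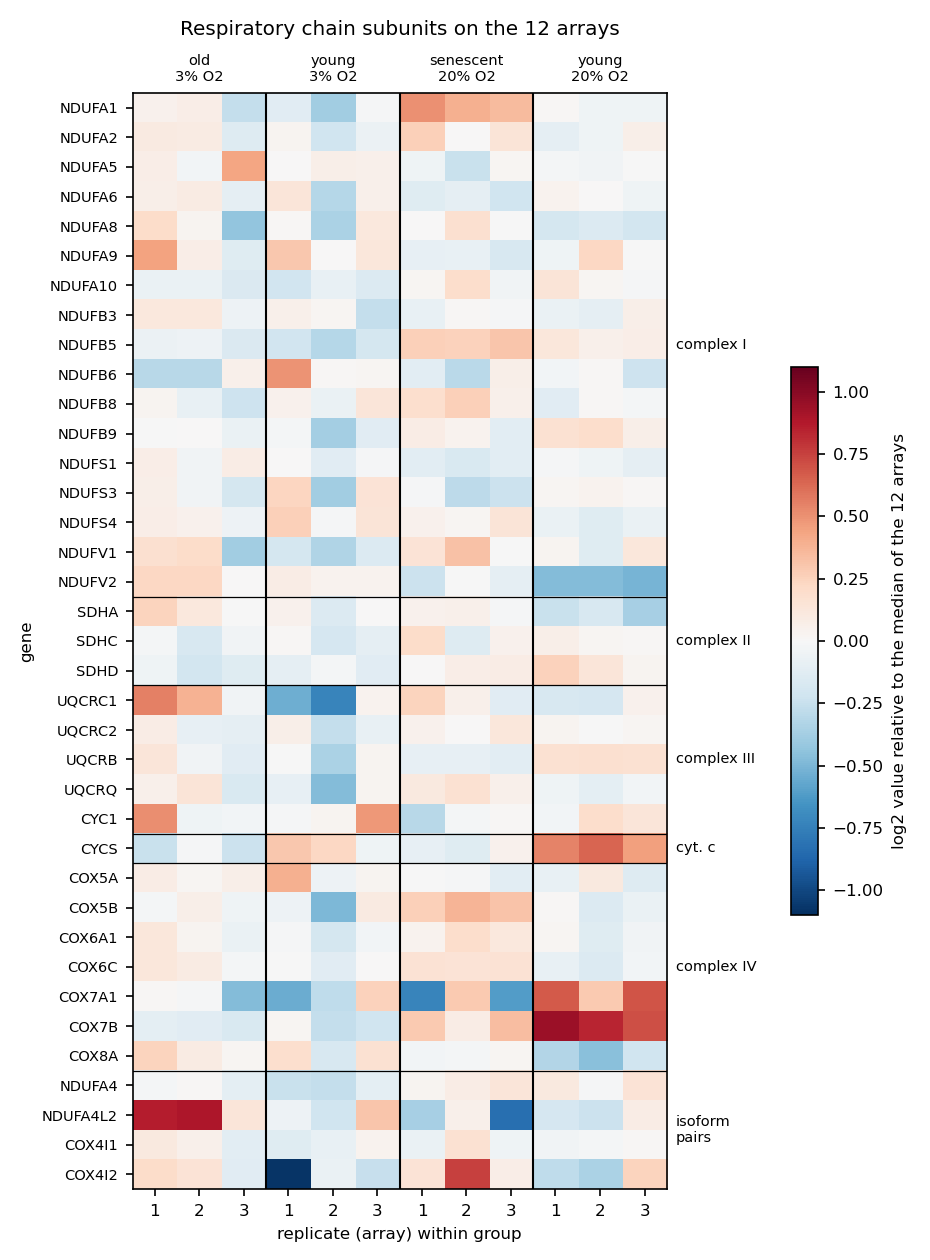
Log2 value of each of the 37 measured genes (rows, by complex) relative to its median over the 12 arrays (columns, by group and replicate), lower values in blue and higher values in red. COX7B and CYCS are highest on the 3 arrays of young cells at 20% oxygen, NDUFV2 is lowest there, and replicate 2 of young cells at 3% oxygen is the lowest of the 12 arrays for 15 genes.

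In senescent against young cells at 20% oxygen, 2 of the 37 genes rose (NDUFA1 and NDUFV2, both of complex I) and 3 fell (CYCS and the complex IV genes COX7A1 and COX7B). The 5 called genes are 13.5% of the 37, against 12.5% of all genes called in this comparison (4.67% higher and 7.84% lower), so the share is near that of all genes. The median change of the 37 genes was 0.01, against 0.04 for all genes. For 22 of the 37 (59.5%) the 95% interval of the change lay within 0.5 of zero, against 61.1% of all genes. All 3 senescent arrays lay above all 3 young arrays for 12 of the 37 genes (32.4%), against 14.1% of all genes, and below them for 8 (21.6%), against 15.2%. Many of the 37 genes thus had small shifts that separated the 6 arrays, in either direction, of which few passed the test.

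In old against young cells at 3% oxygen, limma called 0 of the 37 genes, against 1.74% of all genes called. An unadjusted limma p under 0.05 was seen for 4 of the 37. The share of all genes at that unadjusted threshold was not counted, here or for the lists below. The median change was 0.09, against 0.05 for all genes, and for 30 of the 37 (81.1%) the 95% interval lay within 0.5 of zero, against 63.1% of all genes. The old and young arrays at 3% separated for 1 gene (2.7%), NDUFB5, whose old arrays all lay above, against 9.36% of all genes higher and 6.23% lower without overlap. The largest difference was that of UQCRC1, a core subunit of complex III, whose difference of 0.71 ± 0.19 had an adjusted p of 0.113.

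In young cells at 3% against 20% oxygen, 2 genes rose (NDUFV2 and COX8A) and 3 fell (NDUFB5, CYCS and COX7B), again 13.5% of the 37, against 11.8% of all genes (4.96% higher and 6.84% lower). The median change was -0.04, against -0.03 for all genes. Without young 3% replicate 2, limma called 2 higher and 1 lower. The young 3% arrays all lay above the young 20% arrays for 5 genes (13.5%, against 12.5% of all genes) and below for 11 (29.7%, against 17.2%).

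In old cells at 3% against senescent cells at 20% oxygen, 1 gene rose (NDUFA4L2) and 3 fell (NDUFA1, NDUFB5 and COX7B), which is 10.8% of the 37, against 11% of all genes (6.59% higher and 4.41% lower). The median change was -0.06, against -0.02 for all genes. The interaction was called for COX7B alone, with a negative sign, 2.7% of the 37, against 6.44% of all genes (2.06% positive and 4.37% negative). Comparisons that share a group, such as the 2 that share young cells at 20%, share its 3 arrays and their errors.

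**Figure D2:**
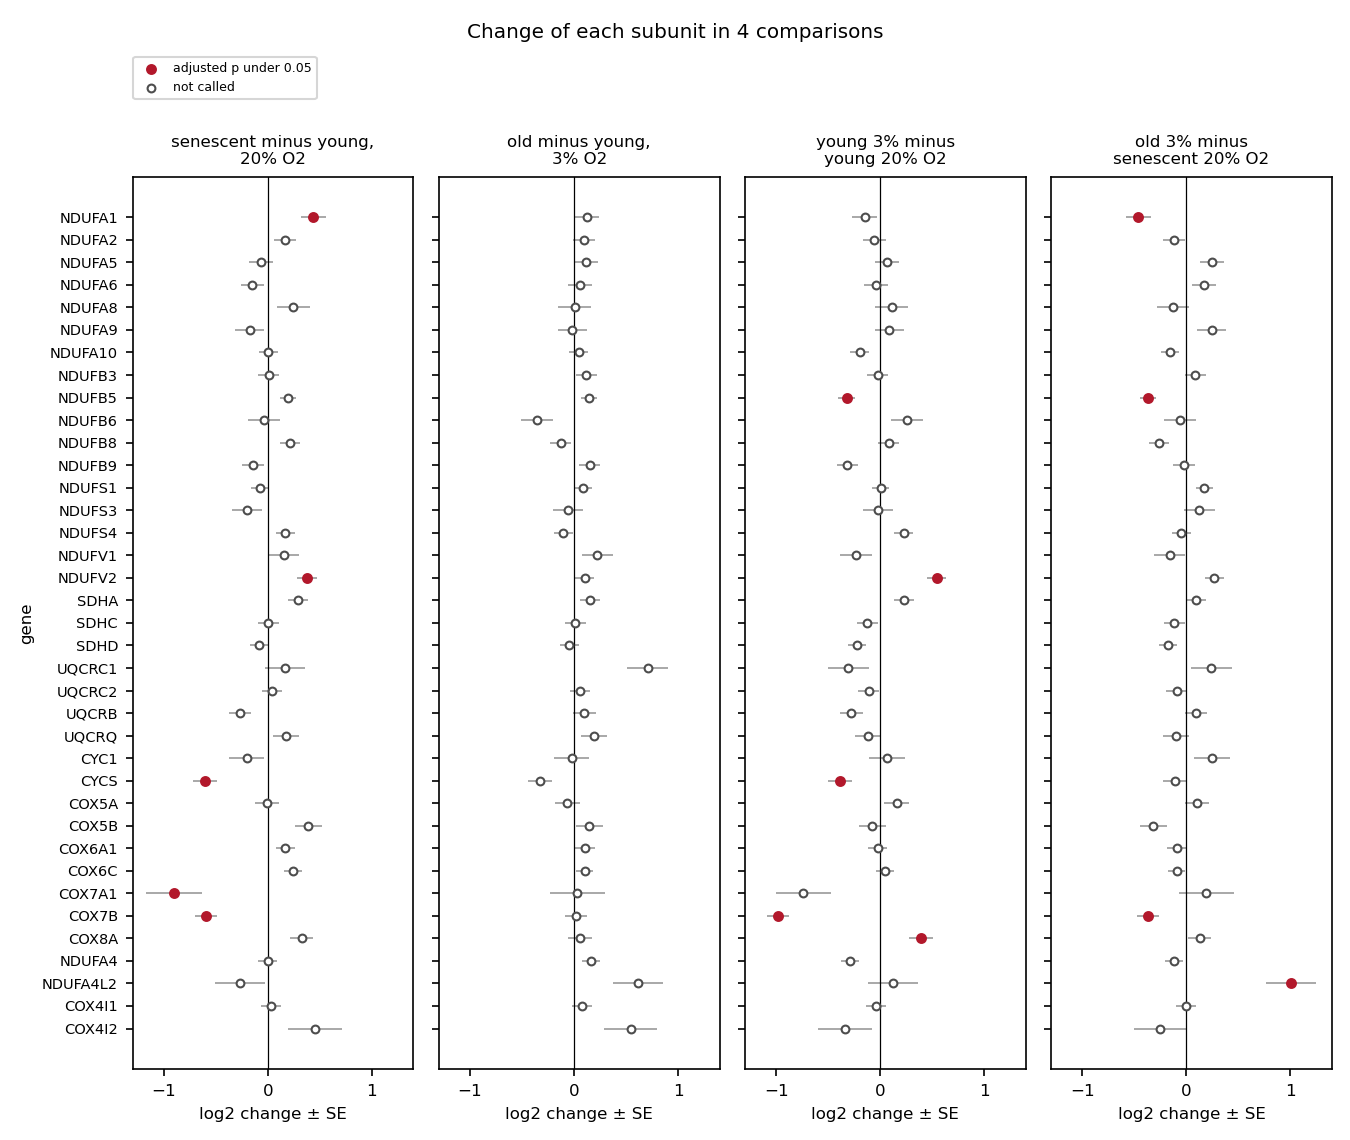
Log2 change (horizontal axis, point) with its SE (bar) for each of the 37 genes in 4 comparisons, with 3 arrays per group; filled red points have an adjusted p under 0.05. At most 3 of the 37 genes reach a size of 0.5 in any of the 4, old against young cells at 3% oxygen has no filled point, and COX7B lies lowest in young cells at 3% against 20%, at -0.98.

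Complex I was represented by 17 genes. Of the 5 subunits of the NADH-oxidising N module, NDUFV2, an iron-sulfur subunit beside the flavin site, was the only one called. NDUFV2 (probe set 202941_at) had values of 0.23, 0.23 and 0.01 in old cells at 3%, 0.08, 0.04 and 0.04 in young cells at 3%, -0.24, -0.01 and -0.10 in senescent cells at 20%, and -0.48, -0.48 and -0.51 in young cells at 20% oxygen. The 3 young 20% arrays were the lowest of all 12. NDUFV2 rose by 0.38 ± 0.09 in senescent against young cells at 20% (adjusted p = 0.0172) and by 0.54 ± 0.09, or 1.46-fold, in young cells at 3% against 20% (adjusted p = 0.00165). The second call held with each of the 12 arrays left out in turn. The first was lost without any of the 3 young 20% arrays or without senescent replicate 2 or 3, with adjusted p between 0.052 and 0.0764. The other N module genes were NDUFV1, which carries the flavin that takes electrons from NADH, NDUFS1, which holds several iron-sulfur clusters, and the accessory subunits NDUFS4 and NDUFA2. Their differences in senescent against young cells at 20% ran from -0.08 to 0.17 and none was called in any comparison.

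The 4 measured genes of the Q module, where ubiquinone is reduced, were NDUFS3, NDUFA5, NDUFA6 and NDUFA9. All 4 had lower means in senescent than in young cells at 20% (differences from -0.20 to -0.07) and higher means in old cells at 3% than in senescent cells at 20% (0.13 to 0.25), and none was called, with adjusted p of at least 0.264 in these 2 comparisons. In senescent against young cells at 20%, the probe sets of NDUFA5 gave 0.05 and -0.19 and those of NDUFA6 -0.53 and 0.23. The lower means of NDUFA5 and NDUFA6 thus hold opposite differences. The mean over the 4 genes was 0.16, 0.02 and 0.00 in old cells at 3%, 0.17, -0.16 and 0.10 in young cells at 3%, -0.07, -0.18 and -0.15 in senescent cells, and -0.00, 0.05 and -0.01 in young cells at 20%. The 3 senescent arrays lay below those of old cells at 3% and of young cells at 20%, and young 3% replicate 2 lay among them.

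Of the 8 measured genes of the membrane-embedded, proton-pumping P module, 2 accessory subunits were called. NDUFA1, encoded on the X chromosome, ranged from -0.26 to 0.07 in old cells at 3%, from -0.38 to -0.01 in young cells at 3%, from 0.35 to 0.50 in senescent cells and from -0.05 to 0.01 in young cells at 20%. The senescent arrays lay above the other 9. NDUFA1 rose by 0.44 ± 0.12 in senescent against young cells at 20% (adjusted p = 0.0266) and fell by 0.46 ± 0.12 in old cells at 3% against senescent cells (adjusted p = 0.0223). The rise was lost without any of the 6 arrays it compares, with adjusted p between 0.0505 and 0.107, or with the probe set of largest SD (0.0502). The fall was lost without senescent replicate 1 or 2 or old 3% replicate 3, with adjusted p between 0.054 and 0.0952, or with the 2 groups compared alone (0.056). NDUFB5, another accessory subunit, ranged from -0.16 to -0.06 in old cells at 3%, from -0.31 to -0.19 in young cells at 3%, from 0.25 to 0.31 in senescent cells and from 0.06 to 0.12 in young cells at 20%. The 4 groups of NDUFB5 did not overlap, with senescent cells highest and young cells at 3% lowest. NDUFB5 fell by 0.37 ± 0.08 in old cells at 3% against senescent cells (adjusted p = 0.00835), a call kept with each array left out, and by 0.32 ± 0.08 in young cells at 3% against 20% (adjusted p = 0.0178), a call lost without young 20% replicate 1 or 3 or young 3% replicate 2, with adjusted p between 0.0514 and 0.0822. It was also lost with the groups alone (0.0664), the probe set of largest SD (0.0678) and without flat genes, those with an SD below the median of all genes (0.0524). The other 6 genes, NDUFA8, NDUFA10, NDUFB3, NDUFB6, NDUFB8 and NDUFB9, were called in no comparison.

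Complex II, which oxidises succinate and is also an enzyme of the citric acid cycle, was represented by SDHA, the flavoprotein, and SDHC and SDHD, its membrane anchors. None of the 3 was called. SDHA had the largest difference, 0.29 ± 0.10 in senescent against young cells at 20% (adjusted p = 0.0716), with the 3 senescent arrays above the 3 young arrays. SDHD was 0.22 ± 0.09 lower in mean in young cells at 3% than at 20%, with an adjusted p of 0.151.

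None of the 5 measured complex III genes was called in any comparison either. UQCRC1 had the widest spread among them, with values of 0.55, 0.38 and -0.04 in old cells at 3%, -0.54, -0.73 and 0.04 in young cells at 3%, 0.24, 0.06 and -0.12 in senescent cells, and -0.17, -0.19 and 0.05 in young cells at 20%. Within each 3% group replicate 3 lay apart from the other arrays, and the 2 groups overlapped. UQCRC2, the other core subunit, CYC1, the haem-bearing cytochrome c1, and the small subunits UQCRB and UQCRQ had differences of -0.28 to 0.25 over the 4 comparisons between groups.

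CYCS, the carrier that passes electrons between complexes III and IV and that also starts caspase activation when it leaves the mitochondrion, was among the few genes with a clear difference. Its values were -0.25, -0.01 and -0.24 in old cells at 3%, 0.30, 0.23 and -0.05 in young cells at 3%, -0.09, -0.13 and 0.05 in senescent cells, and 0.55, 0.64 and 0.45 in young cells at 20%. The 3 arrays of young cells at 20% were the highest of the 12. CYCS fell by 0.60 ± 0.11, or 1.52-fold, in senescent against young cells at 20% (adjusted p = 0.00341), and this call held with each array left out, with adjusted p of at most 0.0199. It also fell by 0.39 ± 0.11 in young cells at 3% against 20% (adjusted p = 0.0447). That second call was lost without any of 9 arrays: young 20% replicates 1 to 3, senescent replicates 1 to 3, young 3% replicates 2 and 3 and old 3% replicate 1, with adjusted p between 0.0511 and 0.157. It was also lost with trend and robust eBayes (0.0848), another quantile normalization (0.115), arrays centred on their median (0.0508), the 2 groups compared alone (0.0885), a replicate block (0.0608), without _s_at and _x_at probe sets (0.055) and without flat genes (0.0566), values in brackets being adjusted p. In old against young cells at 3% the difference of CYCS was -0.32 ± 0.11 (adjusted p = 0.233).

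The 3 probe sets of CYCS differed in size. In senescent against young cells at 20% their differences, which were not tested one by one, were -0.44 for 208905_at, -1.34 for 229415_at and -0.02 for 244546_at. The first of these read -0.20, -0.19 and -0.17 in senescent cells, against 0.22, 0.25 and 0.31 in young cells at 20%. The second read -0.11, 0.01 and -0.07 in senescent cells, against 1.43, 1.63 and 0.80 in young cells at 20%. The first 2 probe sets thus put the young 20% arrays above the senescent ones, and in the third the groups overlapped. In young cells at 3% against 20% the 3 probe sets, in the same order, gave -0.15, -0.93 and -0.08. The second read 1.03, -0.17 and 0.22 in young cells at 3%, which overlapped young cells at 20%. The fall of the CYCS mean in that comparison thus came mostly from 229415_at.

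Of the 7 measured complex IV genes outside the isoform pairs, COX7B, COX7A1 and COX8A, all small nuclear-encoded subunits around the catalytic core, were called in at least 1 comparison. COX7B, encoded on the X chromosome, had values of -0.10, -0.13 and -0.17 in old cells at 3%, 0.02, -0.26 and -0.22 in young cells at 3%, 0.29, 0.08 and 0.34 in senescent cells, and 0.94, 0.84 and 0.71 in young cells at 20%. Young cells at 20% were highest, senescent cells were next without overlap, and the 2 groups at 3% overlapped below them. COX7B fell by 0.98 ± 0.11, or 1.97-fold, in young cells at 3% against 20% (adjusted p = 4.43e-05) and by 0.59 ± 0.11 in senescent against young cells at 20% (adjusted p = 0.00249), and each of these calls held with every array left out in turn. After another round of quantile normalization the second difference was -0.38, with an adjusted p of 0.0599. COX7B also fell by 0.37 ± 0.11 in old cells at 3% against senescent cells (adjusted p = 0.0442), a call lost without any of 8 arrays (young 20% replicates 1 and 2, senescent replicates 1 and 3, young 3% replicate 3 and the 3 old 3% arrays, adjusted p between 0.0577 and 0.167). That fall was also lost with trend and robust eBayes (adjusted p = 0.0903), centred arrays (0.0559), the groups alone (0.0783), without _s_at and _x_at probe sets (0.0573), without flat genes (0.0634) and with the ACTB 3' less 5' value as an RNA quality covariate (0.0627). Its interaction was -0.61 ± 0.15 (adjusted p = 0.0294), from a difference of -0.59 ± 0.11 between senescent and young cells at 20% and of 0.02 ± 0.11 between old and young cells at 3%. The interaction was lost without any of 8 arrays (young 20% replicates 1 and 2, senescent replicates 1 and 2, young 3% replicates 2 and 3 and old 3% replicates 1 and 2, adjusted p between 0.0525 and 0.0895), and with trend and robust eBayes (0.0654), another quantile normalization (0.207) or the RNA quality covariate (0.0654).

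The COX7B result rested on 1 of its 2 probe sets. Probe set 239252_at read -0.26, -0.34 and -0.34 in old cells at 3%, 0.05, -0.28 and -0.42 in young cells at 3%, 0.49, -0.05 and 0.50 in senescent cells, and 1.91, 1.84 and 1.43 in young cells at 20%. Probe set 202110_at read 0.06, 0.09 and 0.01 in old cells at 3%, -0.01, -0.23 and -0.02 in young cells at 3%, 0.08, 0.21 and 0.17 in senescent cells, and -0.03, -0.16 and -0.01 in young cells at 20%. The difference of senescent against young cells at 20% was -1.41 for the first and 0.22 for the second, and that of young cells at 3% against 20% was -1.94 and -0.02. The decline of COX7B in the mean is therefore seen by 239252_at and not by 202110_at.

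COX7A1, the isoform of subunit VIIa that predominates in heart and skeletal muscle, has 1 probe set. It read 0.01, -0.01 and -0.48 in old cells at 3%, -0.55, -0.28 and 0.26 in young cells at 3%, -0.72, 0.28 and -0.61 in senescent cells, and 0.67, 0.29 and 0.69 in young cells at 20%. The senescent arrays lay below the young 20% arrays, with senescent replicate 2, at 0.28, just under the lowest of them, at 0.29. COX7A1 fell by 0.90 ± 0.27, or 1.87-fold, in senescent against young cells at 20% (adjusted p = 0.043). That call was lost without any of 8 arrays (young 20% replicates 1 to 3, senescent replicates 1 and 3, young 3% replicate 2 and old 3% replicates 1 and 2), with adjusted p between 0.0545 and 0.175. It was also lost with the groups alone (0.0579), a replicate block (0.0707) and the RNA quality covariate (0.0676).

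COX8A ranged from 0.02 to 0.25 in old cells at 3%, from -0.18 to 0.19 in young cells at 3%, from -0.03 to 0.02 in senescent cells and from -0.46 to -0.22 in young cells at 20%. The young 20% arrays were the lowest of the 12. COX8A rose by 0.39 ± 0.11 in young cells at 3% against 20% (adjusted p = 0.0413), a call lost without any of 9 arrays (young 20% replicates 1 to 3, senescent replicates 1 to 3, young 3% replicates 1 and 3 and old 3% replicate 2, adjusted p between 0.0515 and 0.16). It was also lost with the groups alone (0.104), the probe set of largest SD (0.0794) and without flat genes (0.0527). In senescent against young cells at 20% its difference was 0.32 ± 0.11 (adjusted p = 0.0908). COX5B, measured by 4 probe sets that all gave 0.38 to 0.41, had a difference of 0.39 ± 0.13 in senescent against young cells at 20%, with an adjusted p of 0.0758. The differences of COX6C and COX6A1 were 0.24 ± 0.08 (adjusted p = 0.0809) and 0.17 ± 0.09 (adjusted p = 0.354), and for these 3 genes the senescent arrays lay above the young arrays. That of COX5A was -0.01 ± 0.12. Within complex IV 4 of 7 genes had a positive and 3 a negative mean difference in senescent against young cells at 20%. The 2 called genes, COX7A1 and COX7B, were negative. The COX7B mean was negative through probe set 239252_at (-1.41), while 202110_at gave 0.22. The COX5A mean of -0.01 held probe sets at 0.14 and -0.16. The call of COX7A1 was lost when single arrays were left out, as given above. A divergence of genes within complex IV therefore rests on COX7A1 and on 239252_at, and was not tested.

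**Figure D3:**
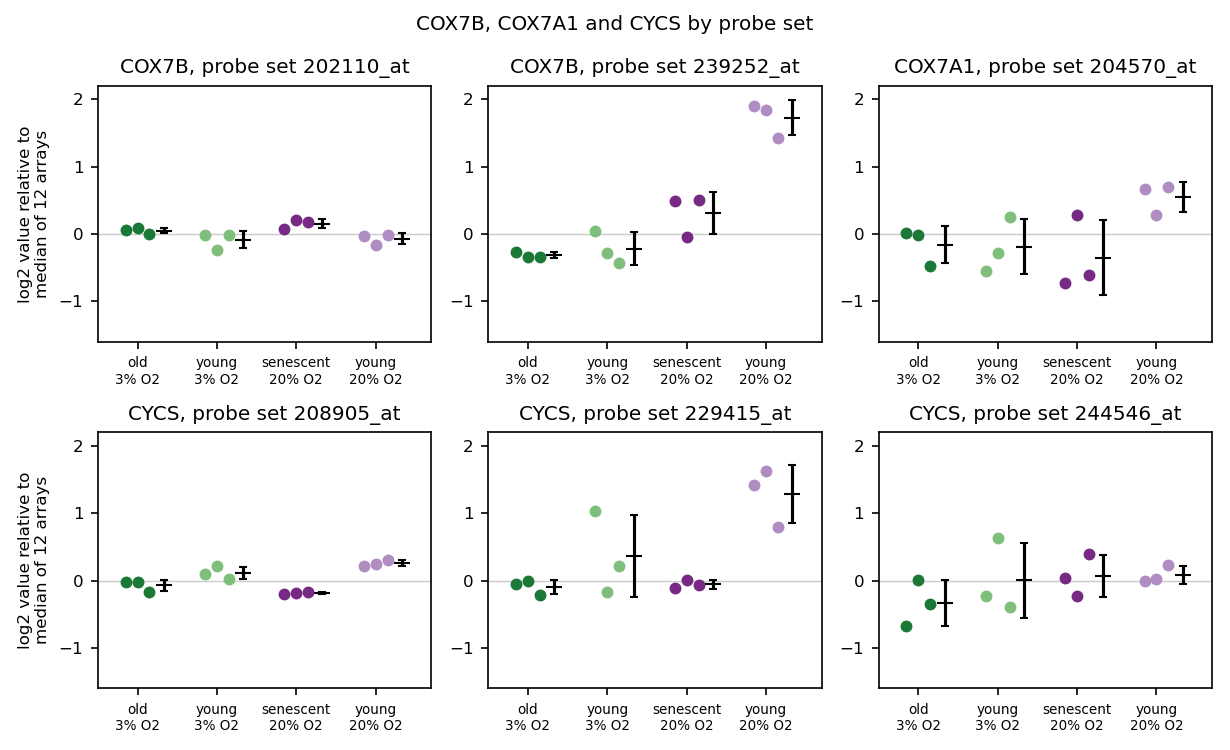
Log2 value relative to the median of the 12 arrays (vertical axis) on each array for the probe sets of COX7B, COX7A1 and CYCS, with the mean and SD of each group of 3 arrays beside the points. Probe set 239252_at of COX7B reads 1.43 to 1.91 in young cells at 20% oxygen and at most 0.50 elsewhere, while 202110_at stays between -0.23 and 0.21.

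Disagreement between probe sets was not limited to COX7B. In senescent against young cells at 20%, 12 of the 19 genes with several probe sets had probe sets of both signs (63.2%), against 50% of all genes with several probe sets. In 7 of the 19 the probe sets differed by at least 0.5, a share that was not counted over all genes. For NDUFS1 the difference was -0.87 at 229647_at and 0.08 to 0.18 at the other 4 probe sets. For UQCRB it was -0.58 and -0.54 at 209065_at and 244293_at and 0.02 and 0.03 at 205849_s_at and 209066_x_at. For NDUFA6 the 2 probe sets gave -0.53 and 0.23. A mean over probe sets near zero can therefore hold opposite differences.

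The oxygen-regulated isoforms were the genes for which a difference between 3% and 20% oxygen would be looked for first. None of the 4 was called in young cells at 3% against 20%. COX4I1, the general isoform of subunit IV, had a difference of -0.04 ± 0.10 in that comparison (95% interval -0.26 to 0.17), and its differences were at most 0.07 in size in the other 3 comparisons between groups. The range of its 4 group means was 0.08. That mean holds 4 probe sets of opposite sign: in senescent against young cells at 20% their differences, not tested one by one, were 0.29 for 200086_s_at, 0.21 for 202698_x_at, -0.16 for 213758_at and -0.21 for 227323_at. The first read 0.16, 0.23 and 0.15 in senescent cells, against -0.05, -0.15 and -0.14 in young cells at 20%, without overlap. COX4I2, the isoform that replaces it under low oxygen, read 0.20, 0.15 and -0.13 in old cells at 3%, -1.08, -0.07 and -0.25 in young cells at 3%, 0.15, 0.75 and 0.07 in senescent cells, and -0.28, -0.35 and 0.24 in young cells at 20%. Young 3% replicate 1 and senescent replicate 2 stood apart from the other arrays of their groups. COX4I2 had a difference of -0.34 ± 0.26 in young cells at 3% against 20% (95% interval -0.90 to 0.22, adjusted p = 0.465), which was -0.03 without young 3% replicate 1. Its differences with passage were 0.45 ± 0.26 at 20% (adjusted p = 0.371) and 0.54 ± 0.26 at 3% (adjusted p = 0.362).

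NDUFA4 lay lowest in young cells at 3%, at -0.24, -0.26 and -0.11, against 0.11, -0.02 and 0.15 in young cells at 20%. These 2 groups did not overlap, and the difference of -0.29 ± 0.09 had an adjusted p of 0.053. Of 8 other settings 3 called it, with adjusted p between 0.0239 and 0.131, and with each of the 12 arrays left out in turn it was called 0 times (adjusted p between 0.051 and 0.185). NDUFA4L2 read 0.86, 0.89 and 0.13 in old cells at 3%, -0.06, -0.22 and 0.31 in young cells at 3%, -0.37, 0.06 and -0.83 in senescent cells, and -0.18, -0.23 and 0.08 in young cells at 20%. The old 3% arrays lay above the senescent arrays, with replicate 3 far below the other 2, and young cells at 3% and at 20% overlapped. NDUFA4L2 rose by 1.01 ± 0.24, or 2.01-fold, in old cells at 3% against senescent cells at 20% (adjusted p = 0.0157). This call was lost without senescent replicate 3 or old 3% replicate 1 or 2, with adjusted p between 0.0707 and 0.0748, or with the 2 groups compared alone (0.0574). Its difference in young cells at 3% against 20% was 0.12 ± 0.24 (95% interval -0.40 to 0.65, adjusted p = 0.788), in old against young cells at 3% 0.62 ± 0.24 (adjusted p = 0.294) and in senescent against young cells at 20% -0.27 ± 0.24 (adjusted p = 0.647). Its interaction of -0.88 ± 0.34 was not called (adjusted p = 0.18), and with each of the 12 arrays left out in turn it was called 1 time (adjusted p between 0.0443 and 0.384).

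NDUFA4L2 is also high in pericytes. Of 12 pericyte and smooth muscle markers, 2 rose (CSPG4 and MCAM) and 3 fell (RGS5, NOTCH3 and TAGLN) in old cells at 3% against senescent cells. This is 41.7% of the 12, against 11% of all genes called (6.59% higher and 4.41% lower). The mean of the 12 ran from -0.10 to -0.00 on the old 3% arrays and from 0.01 to 0.07 on the senescent arrays. Marker levels cannot be read from centred values, and their part in the NDUFA4L2 difference was not tested.

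Within each array the difference NDUFA4L2 minus NDUFA4 was 0.88, 0.87 and 0.24 in old cells at 3%, 0.19, 0.04 and 0.42 in young cells at 3%, -0.40, -0.02 and -0.96 in senescent cells, and -0.29, -0.22 and -0.07 in young cells at 20%. All 6 arrays at 3% lay above all 6 at 20%, a separation that was seen and not tested. The closest values were 0.04 in young 3% replicate 2, the array that stood apart, and -0.02 in senescent replicate 2. How many other pairs of genes separate in this way was not counted. The difference COX4I2 minus COX4I1 averaged 0.06 ± 0.06 in old cells at 3%, -0.41 ± 0.49 in young cells at 3%, 0.31 ± 0.25 in senescent cells and -0.11 ± 0.30 in young cells at 20% (SD, n = 3), with overlap between young cells at 3% and 20%.

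Other genes of the response to low oxygen that bear on mitochondria served for comparison. BNIP3, which drives removal of mitochondria, read 0.14, 0.19 and 0.02 in young cells at 3%, against -1.79, -2.06 and -2.03 in young cells at 20%, a rise of 2.07 ± 0.10 (adjusted p = 4.43e-08). MXI1, a repressor of MYC activity, rose by 1.99 ± 0.09 there, ENO2, a glycolytic enolase, by 2.04 ± 0.11, and PDK1, the kinase that keeps pyruvate out of the citric acid cycle, by 0.95 ± 0.15. LONP1 (0.23, adjusted p = 0.435), HIGD1A, a partner of complex IV (-0.18, adjusted p = 0.247), and ISCU, the scaffold for iron-sulfur clusters (-0.27, adjusted p = 0.291), were not called. In senescent against young cells at 20% BNIP3, MXI1, ENO2 and PDK1 rose by 2.37, 2.49, 2.63 and 1.21 and ISCU by 0.66. In these 2 comparisons neither COX4I2 nor NDUFA4L2 was called. In old cells at 3% against senescent cells at 20%, where NDUFA4L2 rose, 4 of these 7 low-oxygen genes fell and 0 rose. This is 57.1% of the 7, against 11% of all genes called (4.41% lower). Their median change there was -0.49, with a range from -0.70 to 0.17.

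**Figure D4:**
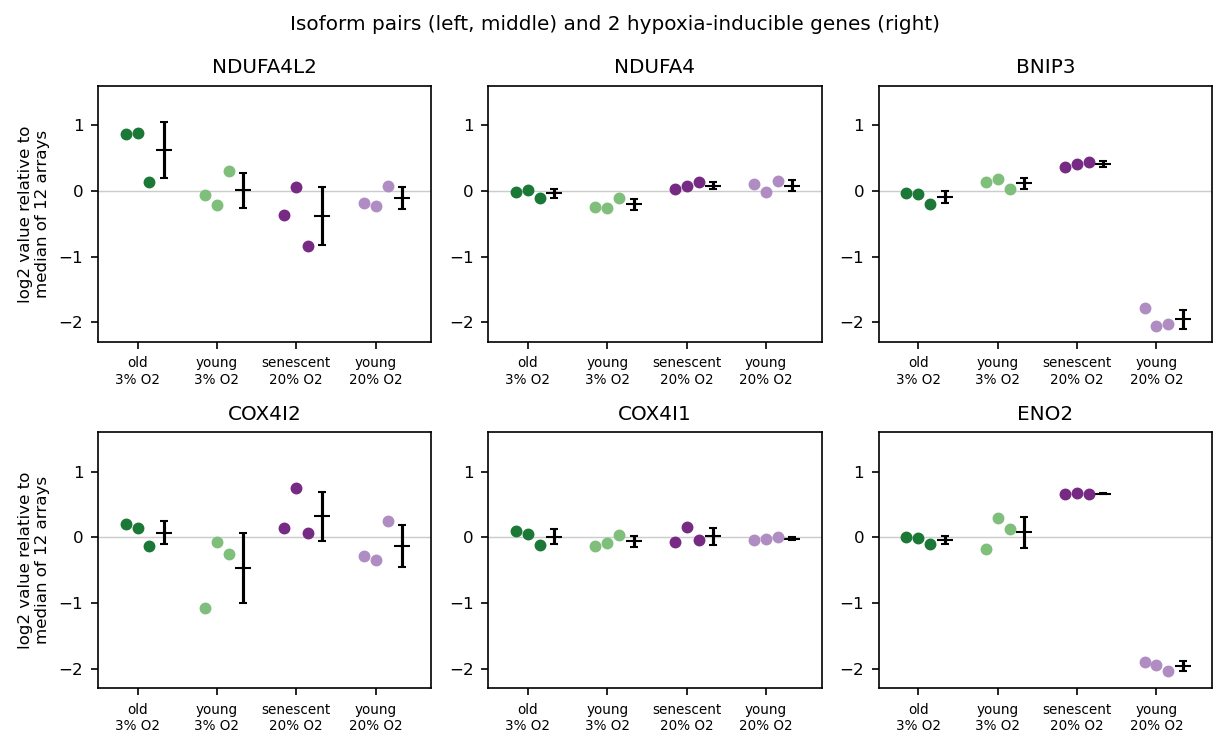
Log2 value relative to the median of the 12 arrays (vertical axis) on each array, by group, with mean and SD of 3 arrays, for NDUFA4L2, NDUFA4, COX4I2, COX4I1 and for BNIP3 and ENO2. BNIP3 and ENO2 lie at -1.79 or below in young cells at 20% oxygen and at -0.19 or above elsewhere, while COX4I1 stays within 0.17 of zero and NDUFA4L2 is highest in 2 of the 3 old 3% arrays.

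The core motif bound by hypoxia-inducible factors, ACGTG or GCGTG, was searched on both strands in the 250 bases upstream of the start of each gene in RefSeq (GRCh38.p14), where 29 of the 37 genes could be matched among 27305 promoters. The sequences of NDUFA4L2 and NDUFA4, a pair with unequal values across the groups, and of CYCS, whose fall in senescent cells held with each array left out, follow 5′ to 3′ on the gene's strand, with matches in capitals, which on the opposite strand read CACGT or CACGC. They lie at chr12:57240763-57241012, chr7:10940154-10940403 and chr7:25125261-25125510, all on the minus strand.
NDUFA4L2: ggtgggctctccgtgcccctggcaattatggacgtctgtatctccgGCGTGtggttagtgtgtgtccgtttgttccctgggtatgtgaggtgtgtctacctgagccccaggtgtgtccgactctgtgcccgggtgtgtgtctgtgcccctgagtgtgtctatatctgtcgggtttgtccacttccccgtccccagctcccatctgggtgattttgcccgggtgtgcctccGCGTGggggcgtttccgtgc
NDUFA4: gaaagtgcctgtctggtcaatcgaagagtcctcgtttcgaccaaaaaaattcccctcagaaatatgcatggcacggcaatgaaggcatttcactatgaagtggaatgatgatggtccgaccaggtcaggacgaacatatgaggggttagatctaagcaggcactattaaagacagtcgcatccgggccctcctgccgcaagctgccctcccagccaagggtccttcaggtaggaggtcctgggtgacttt
CYCS: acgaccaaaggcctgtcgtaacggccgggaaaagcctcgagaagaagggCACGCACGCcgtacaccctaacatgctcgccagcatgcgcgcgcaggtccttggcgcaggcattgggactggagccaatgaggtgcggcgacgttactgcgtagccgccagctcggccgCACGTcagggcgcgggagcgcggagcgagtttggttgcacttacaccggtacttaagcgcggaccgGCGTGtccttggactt
NDUFA4L2 holds GCGTG at 204 and 20 bases upstream, NDUFA4 holds neither motif, and CYCS holds ACGTG at 82 and GCGTG at 201, 197 and 16 bases upstream. Among the 29 genes 6 held ACGTG (20.7%, against 18.7% of all promoters and 20.8% of the 15843 promoters of protein-coding genes) and 11 held GCGTG (37.9%, against 31.9% and 39.2%). The binding motif of nuclear respiratory factor 1, a regulator of respiratory chain genes, searched as GCGCA, any base and GCGC, was in 4 (13.8%, against 5.53% of all and 7.65% of protein-coding promoters), with 4 copies upstream of SDHA. The ETS motif CCGGAAG, bound by nuclear respiratory factor 2 (GABP), was in 8 (27.6%, against 8.82% and 11.8%). Matches of different motifs may share bases, and a match describes these letters alone.

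Genes around the listed subunits were taken from lists of the same pathway. Of 16 other complex I subunits limma called 0 in senescent against young cells at 20%, with 2 at an unadjusted p under 0.05, and of 10 other subunits of complexes III and IV it called 0, also with 2. In young cells at 3% against 20%, 1 of the 16 fell, NDUFA3, by 0.56 ± 0.15 (adjusted p = 0.0285), and 0 of the 10 were called, with 2 at an unadjusted p under 0.05. Of 16 ATP synthase genes, ATP5IF1, the inhibitor of its reverse reaction, rose by 0.44 ± 0.10 and ATP5PO by 0.27 ± 0.08, and ATP5MC3, a gene for the rotor subunit c, fell by 0.47 ± 0.09 in senescent against young cells at 20%. In young cells at 3% against 20% ATP5IF1 rose by 0.48 ± 0.10 and ATP5MC3 fell by 0.52 ± 0.09. The ATP synthase calls were 18.8% and 12.5% of the 16 genes in these 2 comparisons. Of all genes, 12.5% were called in senescent against young cells at 20% and 11.8% in young cells at 3% against 20%.

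Genes that build the complexes were called about as often as genes in general when both directions are counted, but were called lower more often. Of 46 assembly factors 6 fell and 0 rose in senescent against young cells at 20%. This is 13%, against 12.5% of all genes called and 7.84% called lower. The median change was -0.10, against 0.04 for all genes. NDUFAF4, needed to assemble complex I, read -0.33, -0.43 and -0.59 in senescent cells, against 1.15, 1.14 and 1.01 in young cells at 20%, a fall of 1.55 ± 0.13 (adjusted p = 6.54e-06). COA7, a factor for complex IV, fell by 1.09 ± 0.14, SCO1, a copper carrier for complex IV, by 0.76 ± 0.18, and LRPPRC, which stabilises mitochondrial messenger RNAs, by 0.59 ± 0.11. In young cells at 3% against 20%, 7 of the 46 fell and 0 rose, with NDUFAF4 at -0.98 ± 0.13 and COA7 at -0.72 ± 0.14. This is 15.2%, against 11.8% of all genes called and 6.84% called lower. In old against young cells at 3% limma called 0 of the 46, against 1.74% of all genes, with 4 at an unadjusted p under 0.05.

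Among 20 genes of the large subunit of the mitochondrial ribosome, which translates the subunits encoded in mitochondrial DNA, 5 fell and 0 rose in senescent against young cells at 20% (median -0.23), with MRPL15 and MRPL1 at -0.75 each, and limma called 0 in young cells at 3% against 20%, with 2 at an unadjusted p under 0.05. Of 11 citric acid cycle genes 4 fell and 0 rose in senescent against young cells at 20% (median -0.14), led by DLST, a subunit of the 2-oxoglutarate dehydrogenase complex, at -0.63 ± 0.14. These shares were 25% and 36.4% of the 2 lists, against 12.5% of all genes called in this comparison and 7.84% called lower. In young cells at 3% against 20%, 11.8% of all genes were called.

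**Figure D5:**
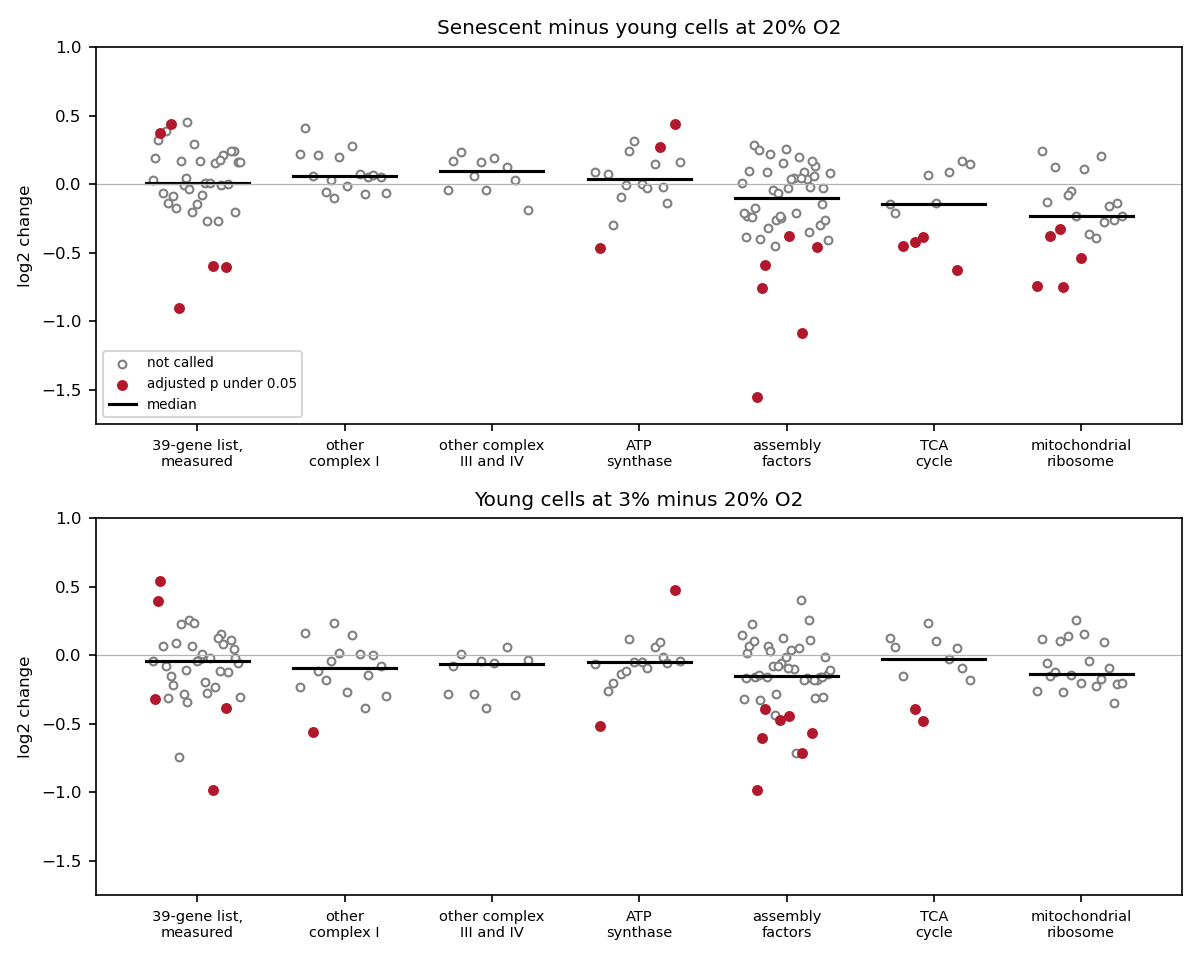
Log2 change (vertical axis) of each gene of the 37 measured subunits and of 6 lists of related mitochondrial genes, for senescent minus young cells at 20% oxygen (top) and young cells at 3% minus 20% oxygen (bottom); filled red points have an adjusted p under 0.05 and bars are medians. In the top panel 2 assembly factors, at -1.55 and -1.09, lie below the lowest subunit, COX7A1, at -0.90.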

How the data were processed

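The deposited values were made by the authors with RMA, per the submitters' processing notes, which give no version. They were taken as log2 values, the base being assumed from RMA, and each deposited probe set has a median of 0 over the 12 arrays, which hides how far a signal stood above background. Raw arrays were not used here. Probe sets naming several genes or none were left out, and the mean was taken per gene (19775 genes). A model of the 4 group means was fitted in limma 3.58.1 (lmFit and eBayes, R 4.3.3) to all 12 arrays. Tests were two-sided, adjusted over all genes by Benjamini-Hochberg and called at an adjusted p under 0.05. The fit was tested on simulated data. Per-array values were printed for genes called with a change of at least 0.5 and for the isoform pairs, and of other lists at most 4 called genes per comparison are named, beside the full comparison list of low-oxygen genes. The members and lists were chosen with earlier results of these data known.

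Same-numbered arrays were checked for shared deviations from their group means. Only the senescent and old pairs all correlated above 0.1 (0.129, 0.519 and 0.669), and the labels do not say what a number marks. Alternatives were a trend with robust eBayes, quantile normalization, centring of arrays, the compared groups alone, array weights, a replicate block, other choices of probe sets, a filter on flat genes, an RNA quality covariate and each array left out. A block within a fit of only the 6 late-passage arrays was added after seeing the data.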

Additional observations from a re-analysis of the deposited data

Results flagged for a closer look

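The interaction, a change from young to late-passage cells that differs between 20% and 3% oxygen, was called by limma for 6.44% of all genes. Cell type markers were not counted here, and 6 of 10 fibroblast and 2 of 12 pericyte and smooth muscle markers had a called interaction. Among the 37 subunits and the mitochondrial and low-oxygen lists above, 9 genes had one, which is why they are listed. Values are the senescent minus young difference at 20% less the old minus young difference at 3%, on the log2 scale, ± SE with 3 arrays per group. COX7B was the only one of the 37 subunits among them, at -0.61 ± 0.15. Its probe set 239252_at had differences of -1.41 at 20% and -0.10 at 3%, against 0.22 and 0.14 for 202110_at. The COX7B interaction thus rests on 239252_at, and its call was lost under several alternatives, as given above. ATP5MC3 was at -0.54 ± 0.13, and the mitochondrial ribosome gene MRPL15 at -0.71 ± 0.17. The assembly factors NDUFAF4 and COA7 were at -1.36 ± 0.18 and -0.96 ± 0.20. The genes of the response to low oxygen had positive interactions, 0.79 ± 0.21 for PDK1, 2.57 ± 0.14 for BNIP3, 2.58 ± 0.13 for MXI1 and 2.75 ± 0.16 for ENO2.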

How the results depend on the processing

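The counts below are members called higher and lower by limma, in the order senescent against young cells at 20% oxygen (2 and 3 as reported), young cells at 3% against 20% (2 and 3), old cells at 3% against senescent cells (1 and 3) and the interaction (0 and 1); old against young cells at 3% stayed at 0 and 0 under every alternative but the leaving out of arrays. Counts that moved by over 1.5 times are given. With array quality weights, 11 rose and 5 fell in the first comparison, and 7 fell in the second. In the third 2 rose and 5 fell, and the interaction was positive for 1 and negative for 4. Over all 19775 genes the calls were then 6203, 3442, 4137 and 2684, against 2474, 2333, 2176 and 1273 as reported. With the probe set of largest SD, 1 rose and 5 fell in the first comparison, and 1 rose in the second. In the third 2 rose, and the interaction was negative for 2. Calls over all genes were 2686, 2457, 2231 and 1487. Without _s_at and _x_at probe sets (32 members left), 5 fell in the first and 1 rose in the second, where 1868 and 1778 of 17098 genes were called. With the RNA quality covariate 6 rose in the first and the interaction had 0, with 2631 and 1090 calls over all genes. With the compared groups alone, 1 rose and 1 fell in the second, and 0 rose and 1 fell in the third. Calls over all genes there were 1975 and 1626. The interaction has no such fit. Without flat genes (15 members left), 1 rose and 1 fell in the second, where 2116 of 9888 genes were called. Trend with robust eBayes and quantile normalization each left 0 for the interaction, against 1100 and 1190 calls over all genes. Leaving out each array in turn, 0 to 4 rose and 2 to 3 fell in the first comparison, 0 to 1 rose and 0 to 0 fell in old against young cells at 3%, 1 to 2 rose and 1 to 4 fell in the second, 0 to 2 rose and 1 to 4 fell in the third, and the interaction was positive for 0 to 0 and negative for 0 to 2. In the same order, calls over all genes ran from 1687 to 2567, 187 to 423, 1626 to 2455, 1607 to 2261 and 858 to 1411. The replicate block in all 12 arrays gave 2 and 2, 2 and 2, 1 and 3, and 0 and 1. In the 6 senescent and old arrays alone, where same-numbered arrays deviate together, the block gave 1 and 4, with 2842 calls over all genes. No alternative turned the direction of a called gene. With 3 arrays a group and no reading of background, changes of dim genes cannot be judged; the cause of each shift was not tested.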

Other observations

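COXFA4L3 (also named C15orf48), a second paralogue of NDUFA4 that is outside the list and was picked after its values were seen, differed between groups more clearly than any of the 4 isoform genes. It read -0.14, -0.36 and -0.55 in old cells at 3% oxygen, 0.59, 0.34 and 0.14 in young cells at 3%, 0.40, 0.66 and 0.92 in senescent cells at 20%, and -0.45, -0.33 and -0.53 in young cells at 20%. The senescent arrays lay above both the old 3% and the young 20% arrays, and the young 3% arrays lay above the old 3% arrays. The limma changes were 1.09 ± 0.16 in senescent against young cells at 20% (adjusted p = 0.000469), -0.70 ± 0.16 in old against young cells at 3% (adjusted p = 0.0421), 0.79 ± 0.16 in young cells at 3% against 20% (adjusted p = 0.00442), and -1.01 ± 0.16 in old cells at 3% against senescent cells (adjusted p = 0.000821), with n = 3 arrays per group. The interaction was 1.80 ± 0.22 (adjusted p = 0.000317), so that the change with passage ran in opposite directions at 20% and at 3% oxygen.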
